A study of Mus musculus with 24 samples.

Results

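The endoderm programme was followed in 6 of the 53465 genes in the deposited expression table, over a differentiation course of mouse embryonic stem cells with and without Atf3: the transcription factor genes Sox17, Foxa1, Foxa2, Foxa3 and Hnf4a, and the chemokine receptor gene Cxcr4. They were chosen by name from the gene symbol column, with earlier results of these data known, and all 6 were among the 15159 genes tested. Sox17, Foxa1, Foxa2, Hnf4a and Cxcr4 rose between day 3 and day 6 in both genotypes, and none of the 6 passed the test between genotypes on any day. At day 6 the levels differed widely between libraries of a group. In the Atf3 knockout the same day 6 library was the lowest of its group for all 6 members. It was also low in liver-type and yolk sac genes and was the knockout library with the most Atf3. The WT day 6 library with the most Atf3 was likewise the lowest of its group for every member but Foxa1.

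SOX17, an HMG-box factor, marks definitive endoderm as it leaves the primitive streak and is also made in extraembryonic endoderm and in some endothelium. The FOXA proteins are forkhead factors that open chromatin at endoderm enhancers. FOXA2 acts in the node, the notochord and the endoderm, FOXA1 follows it in the gut, and FOXA3 is the form best known from liver and gut. HNF4A is a nuclear receptor of visceral endoderm and liver that drives apolipoprotein and clotting factor genes, and CXCR4 is the receptor of the chemokine CXCL12, used as a surface marker of definitive endoderm and carried by migrating mesoderm, blood and endothelial cells as well.

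The samples were mouse embryonic stem cells (mESCs, from AisenGene) kept in serum with LIF and the inhibitors CHIR99021 and PD0325901, either with the genotype label WT or with the label Atf KO, and taken at day 0, day 3, day 6 and day 9 of differentiation. There were 8 groups of 3 poly(A) RNA libraries, 24 in all, read as pairs on a NovaSeq instrument. No source used here gives the differentiation method, the way Atf3 was disrupted or the number of clones. Nor do the labels say that libraries with the same group are separate cultures, and the p-values below then measure a spread that may be technical. The batch entry of the labels repeats the group in all libraries that have one, so batch and group cannot be told apart.

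Atf3, the disrupted gene, was measured first as a check of the labels. In WT it ran from 1.15 to 3.06 FPKM at day 0, from 5.03 to 15.8 at day 3, from 10.9 to 23.99 at day 6 and from 13.7 to 16.2 at day 9. In the knockout it lay between 0.134 and 0.217 FPKM at day 0, between 0.248 and 0.611 at day 3 and between 0.355 and 0.714 at day 9. At day 6 the knockout libraries had 0.343, 0.578 and 4.17 FPKM. The last value belongs to the library labelled KO day 6 replicate 3, which is above the other knockout libraries and below each WT library of days 3 to 9. Which part of the gene was removed is not given, so reads from an exon that remains would not test the label.

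FPKM means fragments per kilobase of exon, here with a scaling of each library that did not follow its total of reads. Foxa2 had 12.4 FPKM from 128 reads in WT day 6 replicate 3, of 7855631 in all. In WT day 6 replicate 2 it had 5.10 FPKM from 204 reads, of 14634463 in all. The reads counted per library were recovered from the FPKM values. They ran from 7855631 to 25274436 with a median of 15611821. Between 4.42% and 45.6% of them fell in 3 genes that carry ribosomal RNA sequence (Gm42418, CT010467.1 and Gm23935). WT day 6 replicate 3 had both the lowest depth and the highest such share. Summed FPKM of 8 naive stem cell markers lay between 1005 and 1249 at day 0 and between 77.4 and 128 at day 3, and 7 of the 8 fell over that step in each genotype, so the day 0 libraries carry the markers of the labelled cell type.

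Sequences just upstream of the members' start sites are shown because 5 of the members rose over the same step (Foxa3 did not pass) and because ATF3 belongs to the factors that bind the CRE and AP-1 sequences. They come from RefSeq on GRCm38.p6, the assembly also called mm10, which is the build in the submitters' processing notes. Each runs 5′ to 3′ on the gene's strand, with annotated exon bases left out, and 5 of the 6 members have an entry. All but that of Foxa1 end at the base before the start site. In Foxa1 the bases left out lie next to the start, so its sequence stops short of it. Distances below are counted from the start site itself. The Foxa1 window is chr12:57546122-57546361 (minus strand, 240 bases), which lies inside the annotated gene, so the annotated gene start was not searched. Foxa2 is chr2:148046970-148047219 (minus strand, 250 bases) and Foxa3 is chr7:19023540-19023789 (minus strand, 250 bases). For Foxa2 only the start at the annotated gene start was used, and its other RefSeq starts were not searched. The window of the downstream start of Hnf4a is chr2:163546943-163547154 (plus strand, 212 bases), and Cxcr4 is chr1:128592300-128592549 (minus strand, 250 bases). Capitals mark the matches to the motifs searched.
Foxa1: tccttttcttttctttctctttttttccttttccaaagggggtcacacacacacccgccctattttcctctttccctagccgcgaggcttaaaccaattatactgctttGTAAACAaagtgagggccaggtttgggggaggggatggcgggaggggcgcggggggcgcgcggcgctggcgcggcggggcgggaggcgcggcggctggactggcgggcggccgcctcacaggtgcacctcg
Foxa2: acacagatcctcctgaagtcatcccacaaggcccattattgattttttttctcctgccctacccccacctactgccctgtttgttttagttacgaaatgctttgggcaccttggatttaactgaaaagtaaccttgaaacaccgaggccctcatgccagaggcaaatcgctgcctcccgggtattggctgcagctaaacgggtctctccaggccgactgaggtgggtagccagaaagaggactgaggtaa
Foxa3: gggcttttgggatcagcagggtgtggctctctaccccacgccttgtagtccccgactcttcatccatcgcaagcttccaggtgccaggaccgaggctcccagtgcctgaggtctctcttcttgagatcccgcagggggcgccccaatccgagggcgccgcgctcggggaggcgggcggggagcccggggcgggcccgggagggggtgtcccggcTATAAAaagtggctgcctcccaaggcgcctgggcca
Hnf4a, downstream start: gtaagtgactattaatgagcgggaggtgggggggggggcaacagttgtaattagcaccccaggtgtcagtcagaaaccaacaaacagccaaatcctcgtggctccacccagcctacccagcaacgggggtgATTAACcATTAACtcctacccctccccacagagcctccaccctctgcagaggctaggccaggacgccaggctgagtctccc
Cxcr4: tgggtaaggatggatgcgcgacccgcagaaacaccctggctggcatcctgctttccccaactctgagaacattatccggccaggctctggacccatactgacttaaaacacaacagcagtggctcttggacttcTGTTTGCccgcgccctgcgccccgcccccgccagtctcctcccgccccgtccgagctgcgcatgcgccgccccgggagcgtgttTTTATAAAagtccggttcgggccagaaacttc

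Both strands of each window were searched for 7 short motifs, chosen after the expression values were known. They were the CRE TGACGTCA, the AP-1 site TGANTCA, the forkhead sites TGTTTAC and TGTTTGC, the SOX site ATTGTT, the HNF1-type site GTTAAT and the TATA box TATAAA. Neither TGACGTCA nor TGANTCA was found in any of these windows, nor in that of the upstream Hnf4a start (chr2:163506607-163506807, plus strand), and they occur in 1.55% and 6.75% of 32841 promoter windows of 250 bases. Foxa1 has TGTTTAC on the other strand, where it reads GTAAACA, with its first base 141 bases before the start (3.17% of windows hold it). Cxcr4 has TGTTTGC 116 bases before the start (4.30% of windows) and a TATA box on each strand, overlapping one another, at 32 and 30 bases before the start. Foxa3 has TATAAA 36 bases before its start (12.4% of windows). The downstream Hnf4a start has the HNF1-type site on the other strand, where it reads ATTAAC, at 81 and at 74 bases before the start (6.43% of windows). The Foxa2 window has none of the 7 motifs, and ATTGTT (9.43% of windows) was found in none of the members' windows searched. A match is only a run of letters, and its absence says only that the letters are not in the window. The gene-level values cannot separate the 2 Hnf4a starts.

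Sox17 (ENSMUSG00000025902, chr1:4490931-4497354 on mm10, minus strand) was near 0 before day 6. Its WT levels were 0.170, 0.279 and 0.0835 FPKM at day 0 and 0.213, 0.537 and 0.284 at day 3. At day 6 they were 3.57, 3.03 and 5.43 FPKM and at day 9 they were 4.55, 3.55 and 3.64. Every WT library of days 6 and 9 was thus above every library of days 0 and 3. The knockout libraries had 0.114, 0.197 and 0.149 FPKM at day 0 and 0.179, 0.0942 and 0.153 at day 3. They had 3.64, 4.67 and 1.44 FPKM at day 6 and 2.78, 2.37 and 2.29 at day 9. The lowest day 6 value is that of the library labelled KO day 6 replicate 3, and at day 9 the 3 knockout libraries lay below the 3 WT libraries. Of the 4772 exon bases of Sox17, 804 are shared with Gm37587 on the opposite strand, whose own level was at most 0.12 FPKM, and the strand setting of the counting is not given.

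Foxa1 (ENSMUSG00000035451, chr12:57540628-57546916, minus strand) had the same course. In WT it was at 0.136, 0.353 and 0.144 FPKM at day 0 and at 0.306, 0.257 and 0.291 at day 3. It reached 3.01, 2.90 and 2.83 FPKM at day 6 and 5.87, 3.05 and 1.92 at day 9. The 3 WT libraries of day 6 had an SD of 0.0930 FPKM, those of day 9 an SD of 2.03. In the knockout Foxa1 was at 0.0702, 0.217 and 0.171 FPKM at day 0 and at 0.257, 0.270 and 0.308 at day 3. It was at 3.33, 4.38 and 1.95 FPKM at day 6 and at 5.99, 2.63 and 3.90 at day 9, so the genotypes overlapped on each day.

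Foxa2 (ENSMUSG00000037025, chr2:148042877-148046969, minus strand) was the member whose day 3 libraries lay above those of day 0 in both genotypes. Its WT levels were 0.114, 0.165 and 0.0336 FPKM at day 0 and 0.453, 1.40 and 1.14 at day 3. They were 6.71, 5.10 and 12.4 FPKM at day 6 and 6.69, 4.85 and 4.29 at day 9. The highest value of all 24 libraries is that of WT day 6 replicate 3, the library of lowest depth. The knockout had 0.0986, 0.122 and 0.210 FPKM at day 0 and 0.451, 0.732 and 0.926 at day 3. It had 6.51, 8.55 and 2.43 FPKM at day 6 and 5.25, 4.08 and 4.55 at day 9. As for Sox17, the lowest day 6 value came from the library labelled KO day 6 replicate 3.

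Foxa3 (ENSMUSG00000040891, chr7:19013284-19023538, minus strand) was present from the start. The WT libraries had 2.26, 1.46 and 1.45 FPKM at day 0 and 2.72, 1.63 and 2.14 at day 3. They had 4.62, 1.69 and 6.76 FPKM at day 6 and 2.49, 2.01 and 2.51 at day 9. WT replicate 2 of day 6 was therefore within the range of the WT stem cells. The knockout libraries had 1.72, 1.39 and 1.96 FPKM at day 0 and 1.94, 1.55 and 1.83 at day 3. At day 6 they had 10.1, 6.70 and 1.15 FPKM, the widest spread of any member in any group (SD 4.52), and at day 9 they had 0.618, 2.40 and 2.49.

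Hnf4a (ENSMUSG00000017950, chr2:163506808-163572910, plus strand) was higher in the stem cells than at day 3. In WT it was at 1.57, 0.779 and 1.17 FPKM at day 0 and at 0.234, 0.707 and 0.501 at day 3. It was at 2.13, 1.32 and 2.66 FPKM at day 6 and at 3.75, 2.46 and 2.57 at day 9. The day 3 libraries lay below those of each other WT day. The knockout had 1.45, 0.749 and 1.297 FPKM at day 0 and 0.133, 0.106 and 0.136 at day 3. At day 6 it had 5.22, 5.58 and 0.678 FPKM and at day 9 it had 0.838, 1.49 and 3.09. At day 3 the 3 knockout libraries were below the 3 WT libraries, and at day 6 the first and second were above all WT libraries while the third was below them. The antisense gene Hnf4aos overlaps the Hnf4a locus but shares 0 exon bases with it.

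Cxcr4 (ENSMUSG00000045382, chr1:128588199-128592293, minus strand) formed a peak at day 6. Its WT levels were 1.25, 1.52 and 1.10 FPKM at day 0 and 1.69, 0.472 and 1.23 at day 3. They were 5.88, 4.26 and 9.89 FPKM at day 6 and 2.04, 1.298 and 0.893 at day 9. The WT libraries of day 6 were above every other WT library. The knockout had 0.947, 3.24 and 1.65 FPKM at day 0 and 1.60, 0.426 and 0.567 at day 3. It had 5.62, 5.93 and 4.80 FPKM at day 6 and 5.69, 1.25 and 1.92 at day 9. One knockout library of day 9, replicate 1, thus had as much Cxcr4 as those of day 6.

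**Figure D1:**
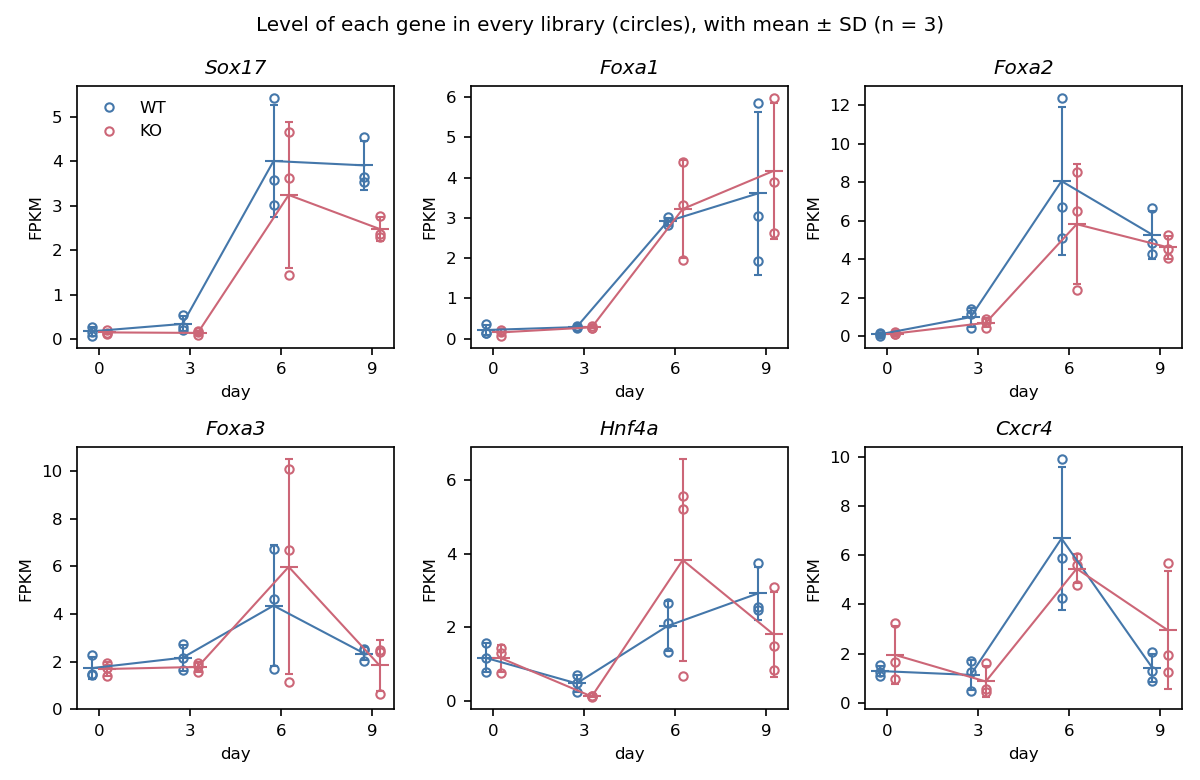
FPKM of each member (6 panels) against the day of differentiation, 1 point per library, with the group mean and SD (3 libraries) for WT and KO. Sox17, Foxa1 and Foxa2 lie at 1.40 FPKM or less until day 3 and between 1.44 and 12.4 FPKM from day 6, whereas Cxcr4 in WT is highest at day 6 and Foxa3 is present on all days.

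In the order of the 8 group means, few neighbours stood apart. For Foxa3 and for Cxcr4 all 7 pairs of neighbouring groups overlapped. Sox17 and Foxa1 had 1 gap each, between the 4 groups of days 6 and 9 and the 4 groups of days 0 and 3. Foxa2 had 2 gaps, between days 6 and 9 and day 3 and between day 3 and day 0. Hnf4a also had 2, with the knockout day 0 mean (1.17 FPKM) next above WT day 3 (0.481) and WT day 3 next above knockout day 3 (0.125). The reads behind these levels were few at the early days: 1 to 7 per library for Foxa2 at day 0, 3 to 15 for Foxa1 and 5 to 17 for Sox17. At day 6 the members had between 41 and 497 reads per library.

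Most members changed at the step from day 3 to day 6. In WT 5 of the 6 members rose by limma on log2(FPKM + 1), where 19.5% of all genes tested were called higher, and in the knockout 5 of 6 rose, where 17.7% were. Their median log2 change was 1.72 in WT and 1.82 in the knockout, and the median over all genes tested was -0.01 and 0.02. In each genotype the day 6 libraries of these 5 members all lay above those of day 3, as did those of 22% of all genes tested in WT and 20.3% in the knockout.

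Sox17 went from a mean of 0.345 ± 0.170 FPKM (SD, n = 3) to 4.01 ± 1.26 in WT, a ratio of means of 11.6, and from 0.142 ± 0.0435 to 3.25 ± 1.65 in the knockout, a ratio of 22.8. The log2 changes were 1.88 (SE 0.22, adjusted p = 2.587e-06) and 1.81 (SE 0.22, adjusted p = 3.382e-06). Foxa1, the later gut factor of the family, changed 10.2-fold in its mean in WT and 11.6-fold in the knockout, with log2 changes of 1.61 (adjusted p = 6.495e-05) and 1.68 (adjusted p = 3.722e-05). Foxa2 changed 8.07-fold and 8.29-fold, with log2 changes of 2.13 (adjusted p = 2.023e-05) and 1.89 (adjusted p = 7.128e-05). Since 1 is added to each value, these log2 changes understate the change of genes that start near 0. With 0.1 added, or with voom on the recovered reads, the Sox17 change was 3.23 and 3.52 in WT and 3.65 and 4.28 in the knockout.

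Cxcr4 rose 5.91-fold in its mean in WT and 6.32-fold in the knockout, with log2 changes of 1.83 (adjusted p = 0.000623) and 1.84 (adjusted p = 0.000603). Hnf4a, from its low at day 3, changed 4.24-fold in WT and 30.5-fold in the knockout. Its log2 change was 1.02 in WT (SE 0.37, adjusted p = 0.0355) and 1.86 in the knockout (SE 0.37, adjusted p = 0.00067). The WT call for Hnf4a was lost in 8 of the alternatives, among them TPM scaling (adjusted p = 0.143), no filter (0.0748) and leaving out WT day 6 replicate 3 (0.120), WT day 6 replicate 1 (0.0877), WT day 3 replicate 1 (0.114) or WT day 3 replicate 3 (0.0717). Foxa3 did not pass, at 0.64 in WT (adjusted p = 0.254) and 1.04 in the knockout (adjusted p = 0.0755). Without the library labelled KO day 6 replicate 3 the knockout change of Foxa3 was 1.74 (adjusted p = 0.000509), and with TPM scaling it was 1.29 (adjusted p = 0.0455).

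**Figure D2:**
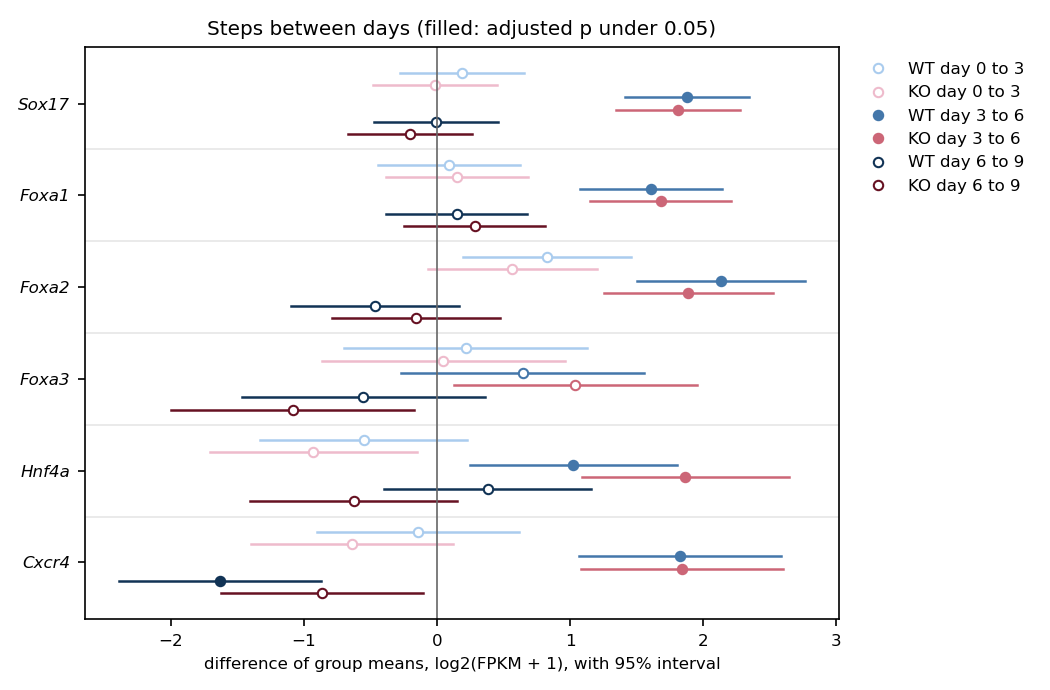
Log2 change of each member over the 3 consecutive steps in WT and KO, with 95% intervals from limma. Filled points have an adjusted p under 0.05: 5 members at the step from day 3 to day 6 in each genotype and Cxcr4 from day 6 to day 9 in WT.

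No difference between the genotypes in this step was detected for any member. The difference of the steps, knockout minus WT, ran from -0.24 to 0.84 over the 6 members, 0 were called by limma or by voom, 0 had an unadjusted p under 0.05, and 0.0726% of all genes were called. The widest 95% interval among these 6 differences was that of Foxa3, from -0.90 to 1.69, so a sizeable difference in either direction could not have been seen at this spread.

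At the first step, from day 0 to day 3, 0 of 6 members were called in WT, where 25.9% of all genes were, and 0 of 6 in the knockout, where 28.1% were. An unadjusted p under 0.05 was reached by 1 member in WT and 1 in the knockout. The member in WT was Foxa2, with a log2 change of 0.83 (adjusted p = 0.0505), and the day 0 and day 3 libraries did not overlap in either genotype. Such a lack of overlap, in either direction, was seen for 45.7% of all genes tested in WT and 56.6% in the knockout over this step. In the knockout Foxa2 changed by 0.57 (adjusted p = 0.177). It passed in WT with 0.1 added (adjusted p = 0.00038), with equal sums without the ribosomal RNA genes (0.026), with the compared groups alone (0.0193), with voom (0.00532) and without WT day 3 replicate 1 (0.030), and in the knockout with 0.1 added (0.00609), with the compared groups alone (0.00982) and with voom (0.0307). The mean of Foxa2 was 9.57-fold that of day 0 in WT and 4.90-fold in the knockout.

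Hnf4a went the other way over this step, with non-overlapping libraries in both genotypes. Its mean at day 3 was 0.410 of that at day 0 in WT (log2 change -0.55, adjusted p = 0.314) and 0.107 of it in the knockout (-0.93, adjusted p = 0.069). The knockout change passed with 0.1 added (adjusted p = 0.00299), with the compared groups alone (0.00266) and with voom (0.0154). Foxa1 in the knockout changed by 0.15 (adjusted p = 0.716), also with no overlap of its libraries. The differences of the first step between genotypes ran from -0.50 to 0.06 over the members, with 0 called by either tool, 0 at an unadjusted p under 0.05 and 0.0132% of all genes called.

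From day 6 to day 9 the members parted. Cxcr4 fell in WT by 1.63 on the log2 scale (SE 0.36, adjusted p = 0.00551), the only one of 6 members called there, where 5.13% of all genes were called lower. Its mean at day 9 was 0.212 of that at day 6, and the libraries did not overlap, where 10% of all genes tested lay wholly lower at day 9. With TPM scaling, which shifted the median of all genes by 0.83 over this step, the change was -0.87 (adjusted p = 0.158), and relative to that median it was -1.70. With the compared groups alone the adjusted p was 0.0639. In the knockout the Cxcr4 change was -0.87 (adjusted p = 0.181), and without KO day 9 replicate 1, the library with 5.69 FPKM, it was -1.33 (adjusted p = 0.0214). The difference of the steps, 0.77 (adjusted p = 0.733), did not pass.

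In the knockout 0 of 6 members were called from day 6 to day 9 by limma and 0 by voom, where 8.51% of all genes were called, and 2 had an unadjusted p under 0.05, Foxa3 (-1.09, adjusted p = 0.158) and Cxcr4. This count rested on the library labelled KO day 6 replicate 3. Without it 3 members were called lower, where 5.44% of all genes were called lower in that same fit: Foxa3 (-1.79, adjusted p = 0.00182), Hnf4a (-1.27, adjusted p = 0.0039) and Sox17 (-0.56, adjusted p = 0.0427). With all libraries Hnf4a changed by 0.38 in WT (adjusted p = 0.511) and by -0.62 in the knockout (adjusted p = 0.396), and the difference of the steps was -1.004 (adjusted p = 0.626). Without the library labelled KO day 6 replicate 3 that difference was -1.65 (adjusted p = 0.0206). The Sox17 change was -0.0055 in WT and -0.20 in the knockout, and both turned positive with TPM scaling (0.94 and 0.17) and with equal sums without the ribosomal RNA genes (0.31 and 0.026). These scalings shifted the median of all genes by 0.83 and 0.33 and by 0.27 and 0.18, and relative to it Sox17 was at 0.10 in WT and -0.16 in the knockout with TPM scaling and at 0.035 and -0.15 with equal sums. Over the 6 members 0 of the step differences were called by limma or voom, and 0 had an unadjusted p under 0.05, with 0.963% of all genes called.

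The comparison of the genotypes on each day gave no call for any member. At day 0 the log2 differences, knockout minus WT, ran from -0.07 to 0.29 over the members and at day 3 from -0.38 to -0.01, at day 6 from -0.45 to 0.46 and at day 9 from -0.55 to 0.58. The number of members called was 0 of 6 on each of the 4 days by limma and also by voom, and 0, 0, 0 and 1 had an unadjusted p under 0.05. Of all genes 0.0132% were called at day 0 and at day 3, 0.726% at day 6 and 0.963% at day 9. The day 6 share stands for 110 genes, a number that rested on single libraries of that day: leaving out WT replicate 2 gave 373, leaving out the first or the third WT library gave 68 or 54, and leaving out KO replicate 2 gave 34. The members' median was -0.06 at day 6 and -0.23 at day 9, beside 0.02 and 0.01 over all genes.

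Sox17 at day 9 was the member with the unadjusted p under 0.05. The means were 3.91 ± 0.553 FPKM in WT and 2.48 ± 0.261 in the knockout (SD, n = 3), and the log2 difference was -0.49 (SE 0.22, 95% interval -0.96 to -0.03, limma unadjusted p = 0.0393, adjusted p = 0.875). It kept its sign without each library in turn, at -0.55 to -0.40. The 3 knockout libraries lay below the 3 WT libraries, and 10.5% of all genes tested had no overlap between genotypes at day 9. At day 6 the difference was -0.30 (adjusted p = 0.634). It turned to 0.26 with TPM scaling, which shifted the median of all genes by 0.55 (-0.30 relative to that median), and to 0.26 without replicate 3 of both day 6 groups, a setting added after the data were seen. Sox17 at day 3 was at -0.23 and Hnf4a at day 3 at -0.38 (adjusted p = 1 for each), and these are the 2 members whose genotypes did not overlap at that day, on 7 to 36 reads per library, where 3.79% of all genes tested did not overlap.

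Among the FOXA genes the day 6 differences were 0.07 for Foxa1 (adjusted p = 0.931), -0.45 for Foxa2 (0.608) and 0.22 for Foxa3 (0.850). At day 9 they were 0.20, -0.14 and -0.31 (adjusted p = 1 for each). The sign of each of these 6 differences depended on the libraries or the scaling: for Foxa2 at day 6 it was 0.18 with TPM scaling and -0.38 relative to that median. Cxcr4 differed by -0.19 at day 6 (adjusted p = 0.841; 0.47 with TPM scaling, -0.08 relative to the median) and by 0.58 at day 9 (adjusted p = 1). The WT and knockout means of Cxcr4 at day 9 were 1.41 ± 0.583 and 2.95 ± 2.40 FPKM. Leaving out KO day 9 replicate 1 brought that difference to 0.11.

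Hnf4a was 2.04 ± 0.673 FPKM in WT and 3.82 ± 2.73 in the knockout at day 6, a log2 difference of 0.46 (SE 0.37, 95% interval -0.32 to 1.23, adjusted p = 0.650). Without the library labelled KO day 6 replicate 3 it was 1.10 (adjusted p = 0.0599), and without replicate 3 of both groups it was 1.25 (adjusted p = 0.0533), with Foxa3 at 1.25 (adjusted p = 0.131). At day 9 Hnf4a was 2.93 ± 0.715 FPKM in WT and 1.81 ± 1.16 in the knockout, a difference of -0.55 (adjusted p = 1).

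**Figure D3:**
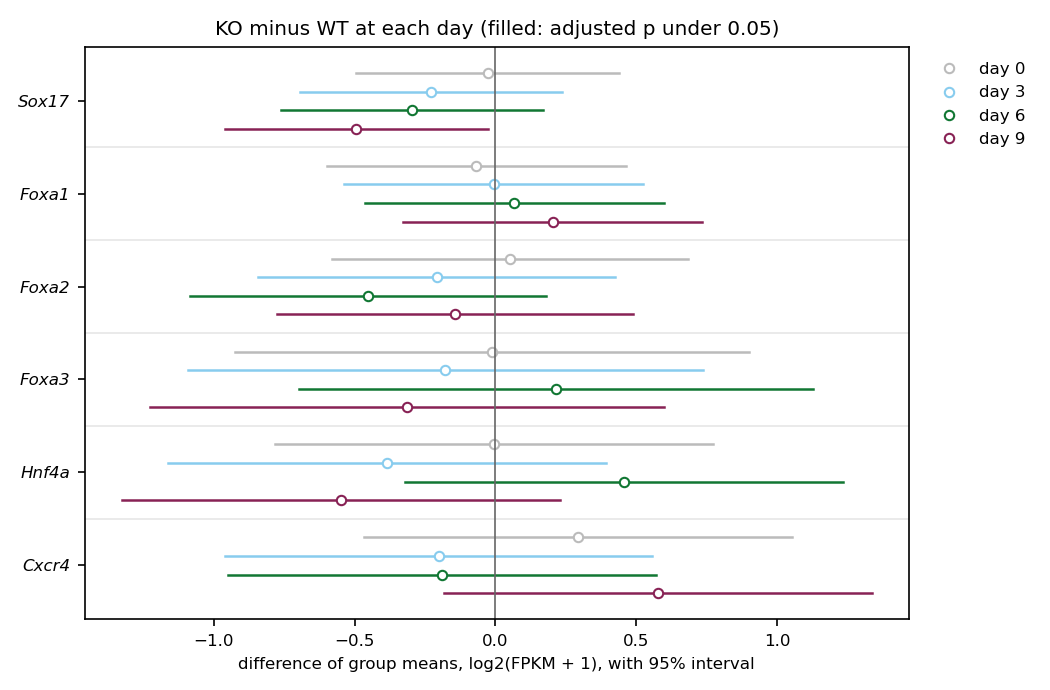
Log2 difference, KO minus WT, of each member on each of the 4 days with its 95% interval from limma. All points are open because 0 of 6 members had an adjusted p under 0.05 on any day, and the interval of Sox17 at day 9 alone leaves out 0.

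The share of Foxa3 in the summed level of the FOXA genes was lower from day 6 than at day 0 in both genotypes, a description chosen after the values were seen. FPKM is a value per length, so the 3 genes can be added. Their summed level was 2.04 FPKM in WT and 1.98 in the knockout at day 0, and 15.3 and 15.0 at day 6. The mean of Foxa3 itself did not fall below that of day 0, at 1.72, 4.35 and 2.34 FPKM at days 0, 6 and 9 in WT and at 1.69, 5.98 and 1.84 in the knockout, while those of Foxa1 and Foxa2 went up from near 0. Foxa3 made up 84.3% of the sum in WT (73.8% to 90.0% over libraries) and 85.0% in the knockout (80.3% to 91.1%) at day 0, and 62.5% and 64.6% at day 3. At day 6 its share was 26.8% in WT and 35.2% in the knockout, and at day 9 it was 21.9% and 18.1%. Foxa2 held 51.9% and 40.0% at day 6, with WT libraries between 46.8% and 56.4% and knockout libraries between 32.6% and 43.9%. At day 9 Foxa2 held 47.5% in WT and 43.6% in the knockout, and Foxa1 held 30.6% and 38.3%.

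**Figure D4:**
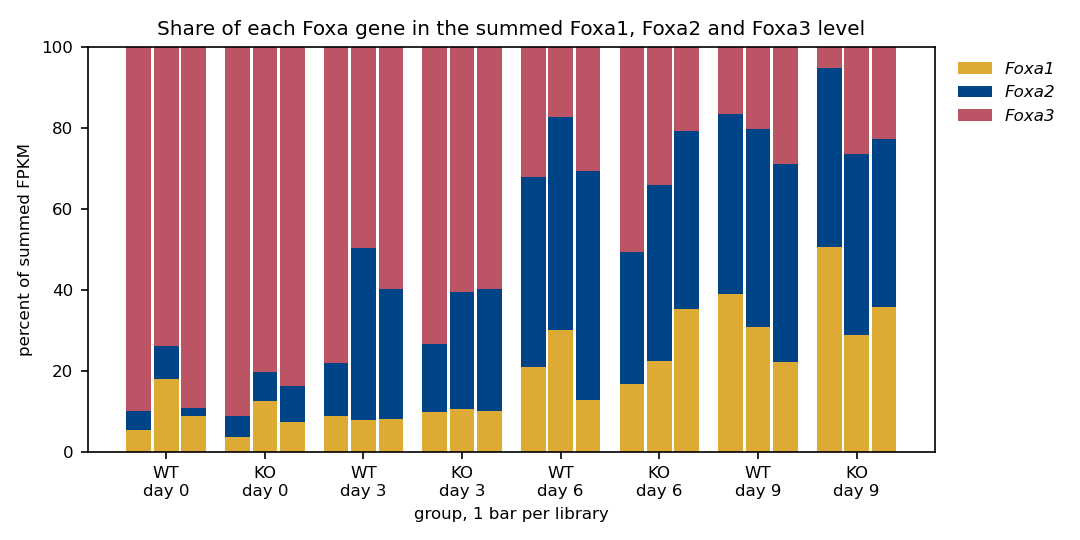
Percent of the summed FPKM of Foxa1, Foxa2 and Foxa3 in each library, 1 stacked bar per library, ordered by genotype and day. Foxa3 holds between 73.8% and 91.1% of each bar at day 0 and between 5.21% and 28.8% at day 9.

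Markers of the cell types in which the members are known were read beside them. In these bulk samples fewer cells of a type and less RNA per cell cannot be told apart. The counts stand beside these shares of all genes tested. From day 3 to day 6, 19.5% were called higher and 19.1% lower in WT, and 17.7% and 14.9% in the knockout. From day 6 to day 9, 13.3% were called in WT and 8.51% in the knockout. Between genotypes 0.726% were called at day 6 and 0.963% at day 9, with 0.495% lower on each of these days. Of 15 definitive endoderm markers, 10 rose and 1 fell between day 3 and day 6 in WT (median log2 change 1.46), and 5 rose and 3 fell in the knockout (median 0.49). Between genotypes at day 6, 0 were higher and 5 lower in the knockout (median -0.33 beside 0.02 over all genes). These were Trh, Cer1, Otx2, Lhx1 and Gsc, the first 3 with the largest change. Trh, which encodes the thyrotropin-releasing hormone precursor, was at 353 ± 162 FPKM in WT and 33.2 ± 20.6 in the knockout (log2 difference -3.43, adjusted p = 5.045e-05). Cer1 encodes a secreted inhibitor of Nodal and BMP that anterior endoderm makes. It was at 7.63 ± 3.02 FPKM in WT and is listed at 0 in the 3 knockout libraries. Otx2, a head and anterior endoderm factor, was at 7.03 ± 5.59 and 0.234 ± 0.0444 FPKM (-2.49, adjusted p = 0.00231). Each of Trh, Cer1 and Otx2 passed in 15 of 16 alternatives but not with the compared groups alone (adjusted p from 0.306 to 0.558), a fit that called 0 genes at day 6 and 1 at day 9.

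At day 9 only Nepn of this list passed, at 28.4 ± 2.68 FPKM in WT and 8.82 ± 7.04 in the knockout (-1.86, adjusted p = 0.00591). The list is mixed in its course: Trh was already at 651 FPKM in the WT stem cells and 341 at day 3, and Otx2 at 5.22 FPKM at day 3. Pyy, Epcam and Krt19 of the same list were not called at day 6, with means of 10.9, 35.7 and 166 FPKM in WT and 26.3, 55.5 and 242 in the knockout. These 3 were picked after their values were seen.

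Extraembryonic endoderm, the yolk sac lineage that also makes Sox17, Foxa2 and Hnf4a, was read from 20 markers, 18 of them tested. Between day 3 and day 6, 8 rose and 2 fell in WT and 11 rose and 1 fell in the knockout (medians 1.33 and 1.53). Between genotypes 0 were called at day 6 by limma or voom, with 3 at an unadjusted p under 0.05, and 0 higher and 1 lower at day 9, with a median of -0.91 and 9 at an unadjusted p under 0.05. That 1 was Apoa2, at 4.24 ± 2.90 FPKM in WT and 0.857 ± 0.838 in the knockout (-1.45, adjusted p = 0.00911), a call lost in 5 of 14 alternatives: without WT day 9 replicate 3 (0.0626) or KO day 9 replicate 1 (0.0925), with 0.1 added (0.253), with the compared groups alone (0.695) and with voom (0.102). The summed level of the 20 markers ran from 698 to 1054 FPKM in WT at day 6 and from 473 to 2242 in the knockout, and at day 9 from 1080 to 1411 and from 572 to 949.

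The knockout library of day 6 that was lowest in Hnf4a and Foxa3 was also the lowest in the summed level of these markers. It was likewise the lowest of its group in Sox17, Foxa1, Foxa2 and Cxcr4, at 1.44, 1.95, 2.43 and 4.80 FPKM. Its Atf3 level was 4.17 FPKM. Its share of reads in the ribosomal RNA genes was 6.10%, beside 18.6% and 11.6% in replicates 1 and 2. Replicates 1 and 2 did not keep the same order in all of the markers. The library labelled KO day 6 replicate 3, with 0.678 FPKM of Hnf4a and 1.15 of Foxa3, had 43.3 FPKM of Ttr, the transthyretin gene of yolk sac and liver, beside 487 and 429 in replicates 1 and 2. It had 0.843 FPKM of the apolipoprotein gene Apoa1, beside 42.1 and 28.2, and 0.737 of the fetal serum protein gene Afp, beside 7.48 and 5.98. The embryonic globin gene Hbb-bh1 was at 126 FPKM there, beside 1376 and 1722. These 4 genes were picked after their values were seen. WT day 6 replicate 2 was the lowest of its group in Sox17, Foxa2, Foxa3, Hnf4a and Cxcr4, at 3.03, 5.10, 1.69, 1.32 and 4.26 FPKM. It was also the lowest in the summed extraembryonic endoderm markers (698 FPKM). In that group it had the most Atf3 (23.99 FPKM) and the lowest ribosomal RNA share (12.2%). The part of these cell types, of Atf3 and of the ribosomal RNA share in the values of the members was not tested.

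**Figure D5:**
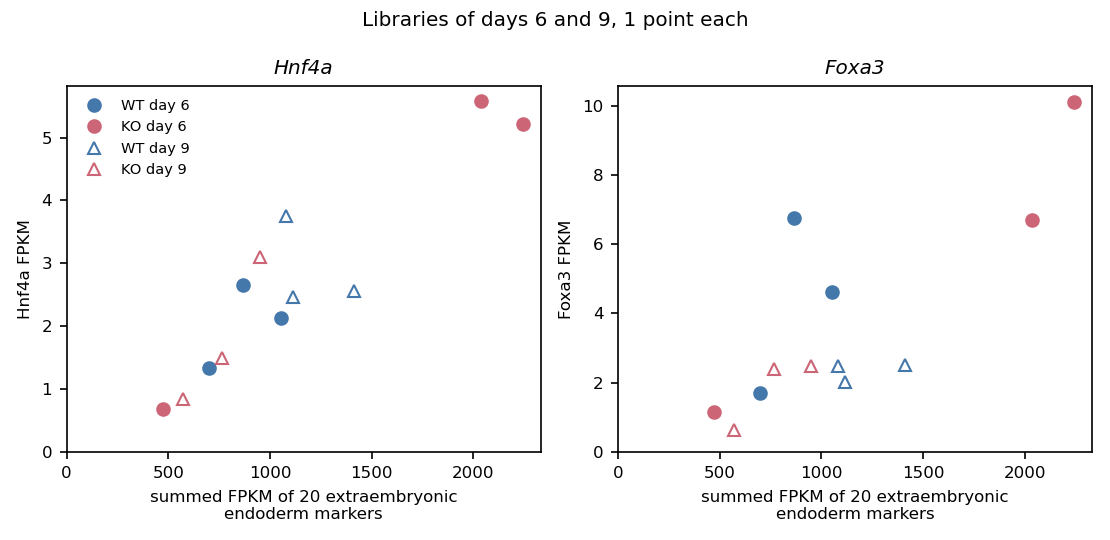
FPKM of Hnf4a and of Foxa3 against the summed FPKM of 20 extraembryonic endoderm markers in the 12 libraries of days 6 and 9. The first and second KO libraries of day 6 lie at 2036 or more on the marker axis and have 5.22 and 5.58 FPKM of Hnf4a, and the third lies at 473 with 0.678.

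Of 20 textbook targets of HNF4A and FOXA factors 11 were tested. This list shares Ttr, Afp, Apoa1, Apoa2, Apob and Rbp4 with the extraembryonic endoderm list, so these lists are not separate observations. Between day 3 and day 6, 4 rose in WT and 7 in the knockout, and between day 6 and day 9, 8 rose in WT, whereas in the knockout 2 rose and 2 fell. At day 6, 2 were higher in the knockout and 0 lower (median 0.52 beside 0.02). Fgb, the fibrinogen beta chain gene, was at 1.198 ± 0.694 FPKM in WT and 5.39 ± 1.498 in the knockout (1.56, adjusted p = 0.0409). Mttp, which loads lipid onto apolipoprotein B, was at 2.40 ± 0.640 and 5.83 ± 1.51 FPKM (1.00, adjusted p = 0.0131). The Fgb call was lost in 13 of 16 alternatives and the Mttp call in 6 of 16. At day 9 the median of this list was -0.78, with Apoa2 called lower and 6 genes at an unadjusted p under 0.05.

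Other cell types that carry members showed differences of their own. Of 6 tested notochord and floor plate genes, where Foxa2 is known, 5 rose between day 3 and day 6 in WT, and 1 rose and 1 fell in the knockout. At day 6, 3 were lower in the knockout, T, Pkd1l1 and Chrd (log2 differences -2.77, -1.44 and -0.76, adjusted p = 0.0364, 1.176e-06 and 0.00889). The median of this list was -1.11 beside 0.02 over all genes, with 5 at a limma unadjusted p under 0.05. The call of T, the Brachyury gene, was lost in 13 of 16 alternatives, that of Chrd in 5 of 15 and that of Pkd1l1 in 1 of 15. The summed level of the 8 genes ran from 31.6 to 34.7 FPKM in WT and from 5.52 to 15.0 in the knockout, while the Foxa2 libraries of the genotypes overlapped. Of 8 tested mesoderm genes, a lineage that carries Cxcr4, 6 rose in WT between day 3 and day 6, and 2 rose and 1 fell in the knockout. At day 6, 3 of these were lower in the knockout (T, Mesp1 and Foxc2), and at day 9 Foxc2 was higher. The day 6 median was -1.73 beside 0.02 over all genes, with 5 at a limma unadjusted p under 0.05. T is also on the notochord list. Voom called 1 gene of this list at day 6 and 0 at day 9, and the summed level of its 10 genes overlapped at day 6, from 188 to 311 FPKM in WT and from 213 to 352 in the knockout.

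Of 12 tested endothelial genes, where Sox17 and Cxcr4 are known, 4 were higher in the knockout at day 9 and 0 lower (median 0.75 beside 0.01): Cdh5, Tie1, Pecam1 and Emcn. Cdh5, the VE-cadherin gene, was at 2.43 ± 0.288 FPKM in WT and 7.41 ± 2.73 in the knockout (1.25, adjusted p = 0.0102), and the receptor gene Tie1 at 1.08 ± 0.263 and 3.80 ± 1.15 (1.18, adjusted p = 0.00313). Cdh5 lost its call without KO day 9 replicate 1 (adjusted p = 0.0985) or WT day 9 replicate 3 (0.0668). Over all alternatives Cdh5 lost it in 6 of 15, Pecam1 in 12 of 15 and Tie1 in 2 of 14, and voom called 2 genes of the list. The summed level ran from 22.9 to 30.8 FPKM in WT and from 46.5 to 65.5 in the knockout. KO day 9 replicate 1, the library with 5.69 FPKM of Cxcr4, had 10.5 FPKM of Cdh5, 16.7 of T and 6.30 of Afp, beside 6.38 and 5.35 of Cdh5, 0.997 and 0.383 of T, and 56.6 and 189 of Afp in the other knockout libraries. Of 6 tested blood genes 6 were higher in the knockout at day 6, with Hbb-bh1 at 29.6 ± 24.4 and 1075 ± 839 FPKM (4.73, adjusted p = 0.00231), and their summed level ran from 23.2 to 83.2 FPKM in WT and from 165 to 2415 in the knockout. Voom called 3 of these 6, the Klf1 call was lost in 10 of 15 alternatives and that of the globin gene Hba-x in 3 of 16. The part of endothelium and blood in the Sox17 and Cxcr4 values was not tested.

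The close relatives and partners of the members were read whether or not they passed. Sox7 and Sox18 belong with Sox17 to the SOXF family, and Sox7 is also made in extraembryonic endoderm. Sox7 rose from 0.0935 ± 0.0375 FPKM at day 0 to 1.26 ± 0.305 at day 3 in WT (log2 change 1.04, adjusted p = 0.000198), before Sox17 did. At day 3 it was at 0.377 ± 0.124 FPKM in the knockout with no overlap of libraries, a log2 difference of -0.71 (adjusted p = 1). Sox18, an endothelial factor, was at 1.46 ± 0.495 FPKM in WT and 5.91 ± 3.05 in the knockout at day 9 (1.41, adjusted p = 0.0535). Hnf4g, the paralogue of Hnf4a, is listed at 0 in every library.

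For Cxcr4 the CXCL12 axis of 11 genes was read, with its ligand, the scavenging receptor Ackr3, and kinases, arrestins and G proteins. Between genotypes 0 of 11 were called on any day by limma or voom, with 0, 0, 2 and 1 at an unadjusted p under 0.05 at days 0, 3, 6 and 9. The ligand gene Cxcl12 fell in WT between day 3 and day 6, from 5.25 ± 0.105 to 2.40 ± 1.06 FPKM (-0.92, adjusted p = 0.0145), a call lost without WT day 6 replicate 3 (0.0768) and with TPM scaling (0.262). It rose to 10.7 ± 1.35 FPKM at day 9 (1.82, adjusted p = 0.000207), and in the knockout from 5.31 ± 3.61 at day 6 to 17.5 ± 5.25 (1.66, adjusted p = 0.000488). Ackr3 rose over both steps, to 2.26 ± 0.0728 FPKM at day 6 and 8.90 ± 1.44 at day 9 in WT and to 2.05 ± 0.207 and 11.4 ± 6.56 in the knockout.

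Finally the genes with the most similar profiles were listed, by Pearson's r of log2(FPKM + 1) over the 24 libraries among about 7784 genes whose highest group mean was at least 5 FPKM. These r values describe a course shared by libraries of the same 4 days. For Sox17 the closest was Foxa2 itself (r = 0.972), followed by Txndc12 (0.971), Itgb5 (0.969), H19 (0.968) and Frzb (0.965). For Foxa1 they were Sh3pxd2b (0.9750), Lhfpl2 (0.970), Capn6 (0.966), Igf2 (0.963) and Fstl1 (0.962), and for Foxa2 Snx33 (0.978), Mxd4 (0.9746), Plekhg2 (0.974), Ctdspl (0.969) and Dbn1 (0.967). Foxa3 was closest to the apolipoprotein gene Apoe (0.882), then to Slc26a10 (0.845), B4galnt1 (0.841), Stxbp2 (0.833) and Cpn1 (0.829). Hnf4a was closest to Lrpap1 (0.907), Nagk (0.895), Rrbp1 (0.876), Cyp4f16 (0.867) and Cbln1 (0.863), and Cxcr4 to Myh9 (0.904), Stard8 (0.858), Dlg5 (0.855), Fgf15 (0.854) and Map4k4 (0.836). Among the members themselves Sox17, Foxa1 and Foxa2 had r of 0.927 to 0.972 with each other. Foxa1 with Foxa3 had the lowest r of all 15 pairs (0.367), and Hnf4a with Cxcr4 had 0.470.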

How the data were processed

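RNA of 24 libraries (8 groups of genotype and day, 3 each) was analysed from 1 table of gene-level FPKM values deposited by the authors. Build mm10, HISAT2 2.2.1, the counter featureCounts 2.0.1, and also Trimmomatic 0.39, FastQC 0.11.9, R 4.1.0 and DESeq2 1.30.1 are named in the submitters' processing notes, and no source used here gives their settings. Samples were grouped by the genotype and day of the labels. In the knockout at day 0, 1 column is tied to the group only and is listed between replicates 1 and 2.

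Genes with at least 1 FPKM in at least 3 libraries were fitted with limma 3.58.1 (R 4.3.3, trended prior) on log2(FPKM + 1) over all 24 libraries, with 16 residual and 4.02 prior degrees of freedom, two-sided tests, Benjamini-Hochberg adjustment over 15159 genes per comparison and a threshold of 0.05. Contrasts were knockout minus WT on each day, consecutive days within a genotype, and the difference of those steps. The fit was also run on simulated reads with known changes in the knockout at day 6. These had the same spread for every gene and no outlying library. That run therefore does not test the fit at the spread of these data. Reads were recovered from FPKM with GENCODE vM21 exon lengths (53274 of 53465 genes). Of values up to 50 reads, 95.5% to 96.9% per library lay within 0.05 of a whole number. No 2 libraries were identical (chi-square per degree of freedom between replicates 7.15 to 271).

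Replicate numbers are shared by the groups. Deviations of same-numbered libraries correlated at 0.599 to 0.655 between genotypes at day 3, in all 3 pairs, but not on the other days (-0.467 to 0.265) or between days (-0.479 to 0.399). Differently numbered libraries of the 2 genotypes did correlate on other days. At day 6 they ran from -0.737 (WT 2 with KO 1) to 0.676 (WT 2 with KO 3). At day 9 they ran from -0.630 (WT 1 with KO 2) to 0.666 (WT 3 with KO 2). A block on the number does not take up such a likeness. Blocking on the number within day 3 changed no member's call.

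The members, marker lists and alternatives were chosen with earlier results of these data known, and the voom alternative used the recovered reads. Genes other than the members were named by a rule. It took up to 3 of each list with the largest change among those called between genotypes. It also took fixed partners (Sox7, Sox18, Hnf4g, Cxcl12, Ackr3) and the 5 most similar genes, predicted genes passed over. Lhx1, Gsc and Emcn, and T and Afp in KO day 9 replicate 1, were named outside this rule. Other exceptions are marked in the text. The alternatives were 0.1 as pseudocount, no filter, at least 5 FPKM, TPM scaling, equal sums without ribosomal RNA genes, the replicate block, the compared groups alone, voom, and leaving out each library.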

Additional observations from a re-analysis of the deposited data

How the results depend on the processing

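The count of 0 members called between genotypes held on each of the 4 days under every alternative run, and so did the count for the difference of the steps from day 0 to 3 and from day 3 to 6. For the step from day 3 to day 6 the count was 2 of the 3 members that passed the filter at 5 FPKM in WT and in the knockout, and 4 to 6 of 6 elsewhere. From day 0 to day 3 the WT count was 1 with 0.1 added, equal sums without ribosomal RNA genes, the compared groups alone and voom, and 0 to 1 without 1 library; the knockout count was 2 with 0.1 added, the compared groups alone and voom. From day 6 to day 9 the WT count was 2 with TPM scaling, which lost Cxcr4 and called Sox17 and Hnf4a higher (it shifted the median of all genes by 0.83, and relative to that Sox17, Hnf4a and Cxcr4 were at 0.10, 0.45 and -1.70), and 0 with the compared groups alone. The knockout count was 0 to 3 without 1 library and 3 without replicate 3 of both day 6 groups, and that of the step difference was 0 to 1 and 1. The replicate block took the call of Hnf4a from day 3 to day 6 in WT (adjusted p = 0.0542, so 4 rather than 5 members) and changed no other member's call.

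Signs turned as follows. At day 6, knockout minus WT, Sox17, Foxa2 and Cxcr4 were at 0.26, 0.18 and 0.47 with TPM scaling and at 0.26, 0.30 and 0.17 without replicate 3 of both groups. Leaving out 1 library at a time, Sox17 ran from -0.55 to 0.062, Foxa1 from -0.13 to 0.30, Foxa3 from -0.27 to 0.92 and Cxcr4 from -0.43 to 0.10. At day 9 Foxa1 ran from -0.080 to 0.54, Foxa2 from -0.26 to 0.0125 and Foxa3 from -0.50 to 0.049. Sox17 from day 6 to day 9 in WT was at 0.94 with TPM scaling, 0.31 with equal sums, 0.11 with voom, 0.19 without replicate 3 of both day 6 groups and -0.15 to 0.19 without 1 library, and in the knockout at 0.17 with TPM scaling, 0.026 with equal sums and -0.56 to 0.048 without 1 library. These are 26 of 591 values over the 40 member results reported singly; over all 78 member results it was 97 of 1227. TPM scaling and equal sums, which shift all genes, gave 7 of the 26 and 24 of the 97, and relative to the median Sox17, Foxa2 and Cxcr4 at day 6 stayed at -0.30, -0.38 and -0.08 with TPM scaling. The cause was not tested.

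Scaling moved the split of all called genes. From day 3 to day 6 it was 2963 higher and 2895 lower in WT (1205 and 876 with TPM scaling, 1904 and 4028 with equal sums) and 2688 and 2266 in the knockout (2363 and 772, 1901 and 3033). From day 6 to day 9 it was 1236 and 777 in WT (4632 and 101, 2143 and 403) and 918 and 372 in the knockout (880 and 87, 1505 and 213). Between genotypes it was 35 and 75 at day 6 (23 and 15 with TPM scaling) and 71 and 75 at day 9 (60 and 29, 97 and 71). With the compared groups alone 0 genes were called at day 6 and 1 at day 9.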

Other observations

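Of 13 genes of Nodal signalling, the pathway that starts the endoderm programme, 4 fell and 0 rose between day 0 and day 3 in WT, and 5 fell and 1 rose in the knockout. Between day 3 and day 6, 2 rose and 5 fell in WT and 3 rose and 4 fell in the knockout. Of all genes tested, 14.5% fell in WT and 16.2% in the knockout from day 0 to day 3. From day 3 to day 6, 19.5% rose and 19.1% fell in WT, and 17.7% rose and 14.9% fell in the knockout. The counts of rising genes at this second step were near those shares. Their summed level ran from 428 to 560 FPKM at day 0 over both genotypes and from 82.9 to 130 at day 9. Between genotypes 0 were called on any day by limma or voom, with 0, 0, 1 and 3 at an unadjusted p under 0.05.

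Of 16 further endoderm and liver transcription factor genes 9 were tested, and 5 rose and 1 fell between day 3 and day 6 in each genotype (medians 1.46 and 1.63, beside -0.01 and 0.02 over all genes). The list shares Gata4, Gata6 and Hhex with the definitive endoderm list. Between genotypes 0 were called at days 0, 3 and 6 by limma or voom (0, 2 and 0 at an unadjusted p under 0.05). At day 9 Cebpa, a liver and fat cell factor, was lower in the knockout, at 1.40 ± 0.0821 FPKM in WT and 0.544 ± 0.146 in the knockout (log2 difference -0.64, limma adjusted p = 0.0354), a call lost in 12 of 14 alternatives, each single library left out among them.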
